A study of Mus musculus with 2 samples.

Results

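The miRNAs described here are 10 mature miRNAs known from blood and immune cells, measured in the retina of newborn mice. They were taken by name, as the rows of miR-451a, miR-144, miR-486a, miR-486b, miR-142a and miR-146a-5p among 1358 rows of mature miRNAs, and all 10 had a row. The series held 1 group, wild-type CD-1 retina, taken whole from this outbred stock at postnatal day 0, with 2 libraries, replicate 1 and replicate 2. No agent or mutation was involved, and perfusion or removal of blood before dissection is not given in the sources used here. Nothing in the labels ties the libraries to separate animals, so the SDs measure only a spread that may be technical. The p-values cover counting error only and take in no spread between libraries. The tables totalled 8337902 counts in replicate 1 and 8118208 in replicate 2, and 924 rows had counts in both. The markers of the labelled tissue were high, with miR-9-5p of neural cells and miR-182-5p, miR-183-5p and miR-96-5p of sensory cells at ranks 1, 2, 5 and 24, and the neuronal miR-124-3p at rank 91. These 5 together took 39.8% of the counts in replicate 1 and 42.0% in replicate 2.

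A miRNA is cut from 1 arm of a hairpin RNA, named 5p or 3p, and its bases 2 to 8, the seed, pair with target messenger RNAs. miR-451a and miR-144 are made from a shared transcript that the erythroid factor GATA1 switches on, and both accumulate as red blood cells mature. miR-451a is unusual in that Argonaute2, not Dicer, cuts its short hairpin, after which the 3′ end is trimmed. miR-486 lies in the gene of the red cell membrane protein ankyrin-1 and is also known from skeletal and heart muscle. miR-142a is made in nearly all blood cell lineages, where it is widely used as a marker. miR-146a is switched on by the inflammatory factor NF-kB and lowers Irak1 and Traf6, which signal upstream of NF-kB. Cells outside the blood lineages can make miR-146a too.

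The sequences of the 6 members that RefSeq lists on GRCm38.p6 are shown with the seed in capitals, because the seeds set which members could act on shared targets. miR-146b-5p is added as the close relative of miR-146a-5p:
miR-451a: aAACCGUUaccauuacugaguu
miR-144-3p: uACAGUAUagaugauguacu
miR-144-5p: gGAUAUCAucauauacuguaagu
miR-142a-3p: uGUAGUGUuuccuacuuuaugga
miR-142a-5p: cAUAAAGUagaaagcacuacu
miR-146a-5p: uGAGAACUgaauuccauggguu
miR-146b-5p: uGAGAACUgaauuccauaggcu

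For the miR-486 rows the most frequent read in the libraries, as the authors deposited it in DNA letters, is shown because the reads decide how the counts of miR-486a and miR-486b can be told apart. Capitals again mark bases 2 to 8, and each read was the same in both libraries:
miR-486a-5p and miR-486b-5p: tCCTGTACtgagctgccccgagt
miR-486a-3p: cGGGGCAGctcagtacaggatg
miR-486b-3p: cGGGGCAGctcagtacagga

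The 10 members carried 8 different seeds. miR-486a and miR-486b shared a seed on each arm, and no other members did. Among the 1152 rows matched to a RefSeq mature sequence, miR-146b-5p was the only other row with a member's seed. It differed from miR-146a-5p at 2 of 22 bases, G18A and U21C, counted from 1 at the 5′ end with the miR-146a-5p base given before the position. The miR-486 arms were close to perfect reverse complements of each other: the leading 20 bases of the miR-486a-3p read matched a stretch of the 5p read exactly in this way. The miR-486b-3p read was those 20 bases alone.

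The positions of the genes, on GRCm38 in the GENCODE annotation, put several members opposite another miRNA gene. Mir144 (chromosome 11, 78073005 to 78073070, plus strand) and Mir451a (78073170 to 78073241, plus strand) were 99 bases apart, with no other annotated gene over Mir144 and Mir451b on the opposite strand of Mir451a. Mir486 (chromosome 8, 23142555 to 23142682, plus strand) lay in introns of Ank1, the ankyrin-1 gene, in all 15 Ank1 transcripts that cover it. Mir3107, an older name of the miR-486b gene, lay inside it on the minus strand (23142573 to 23142662), in an intron of the antisense transcript Gm15816. Mir142 (chromosome 11, 87756864 to 87756927, plus strand) lay in an intron of the lincRNA Mir142hg, opposite Mir142b. Mir146, the gene of miR-146a (chromosome 11, 43374397 to 43374461, minus strand), overlapped no other annotated transcript. Whether the counting used strand is not given in the sources used here.

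The newborn retina held these miRNAs at a low total level, and most of that total was miR-486. In CPM, counts scaled to a table total of 1000000, the 10 rows summed to 184 (replicate 1) and 192 (replicate 2). That is 0.0188% ± 0.000595 of the counts (SD, n = 2). The 4 miR-486 rows held 83.0% of the members' counts in replicate 1 and 87.1% in replicate 2, and miR-146a-5p held 15.5% and 11.5%. The remaining 5 rows, miR-451a, both arms of miR-144 and both arms of miR-142a, held 24 and 22 counts in all. Of the 10 members, 9 had counts in both libraries and 4 reached a mean of 10 CPM, a level reached by 26.9% of all rows. Their median was 1.35 CPM, beside 0.73 CPM over all 1358 rows and 1.47 CPM over the 1151 rows with a count. Both the 4 and the median take miR-486a-5p and miR-486b-5p as 2 members, though these rows split the same reads, as described below. Counting them once would lower both values. A read covers a whole miRNA, so no length scaling was needed, but adapter ligation favours some sequences and is part of every level compared between miRNAs. In whole tissue, few cells of a type and little RNA per cell cannot be told apart.

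**Figure D1:**
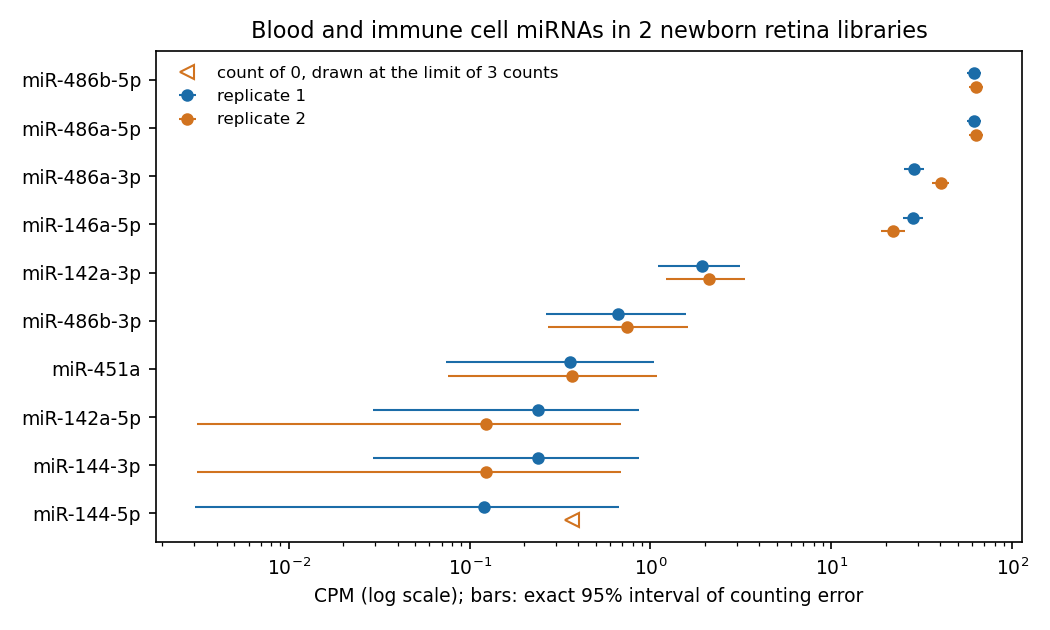
CPM of each of the 10 miRNAs (log axis) in replicate 1 (blue) and replicate 2 (orange), with exact 95% intervals of counting error. The miR-486 5p rows lie at the top, near 61.5 and 63.1 CPM, and miR-451a and miR-144 lie below 1 CPM in both libraries; miR-144-5p had no count in replicate 2 and is drawn at the limit of 3 counts.

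Among the red cell miRNAs, the pair made from a shared transcript was almost at the edge of detection. miR-451a had 3 counts in each library, or 0.36 CPM in replicate 1 (exact 95% interval 0.0742 to 1.05 CPM, counting error only) and 0.37 CPM in replicate 2 (0.0762 to 1.08 CPM). Its rank was 775 of 1358. miR-144-3p had 2 counts in replicate 1 and 1 in replicate 2, and miR-144-5p had 1 count and 0 counts, and for a count of 0 the limit used here, 3 counts, is 0.37 CPM. At this depth neither the order of these 3 miRNAs nor a difference between the libraries was detectable.

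miR-486 stood far above them. miR-486a-5p and miR-486b-5p held 512.5 counts each in both libraries, which were 61.5 CPM in replicate 1 and 63.1 CPM in replicate 2. The equal and fractional values show reads of a shared sequence split evenly, so the rows are 1 measurement of 1025 counts per library, at 125 ± 2.35 CPM (SD, n = 2). Neither row says how much came from the miR-486a or the miR-486b gene. Counts of miR-486-5p were 342 times those of miR-451a in each library, with an exact 95% interval of 117 to 1660 that covers counting error only and rests on the 3 counts of miR-451a. Against the leading miRNA of the tissue the order was reversed: miR-9-5p exceeded miR-486-5p 1823-fold (log2 ratio 10.83 ± 0.017, SD, n = 2).

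The 3p rows of miR-486 were far apart. miR-486a-3p held 239.5 counts in replicate 1 and 327 in replicate 2 (28.7 and 40.3 CPM), and miR-486b-3p held 5.5 and 6 counts (0.66 and 0.74 CPM). Subtracting the miR-486b-3p value from that of miR-486a-3p left the whole numbers 234 and 321. Those values are what an even split of 11 and 12 reads between both rows would give, with the remaining reads long enough to be given to miR-486a-3p alone. No count was thus shown to belong to miR-486b-3p only.

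miR-486 is also a muscle miRNA, so muscle miRNAs are given beside it, from a list added after the values were seen. Of 4 such miRNAs, miR-206-3p was at 73.0 and 68.4 CPM and miR-1a-3p at 14.4 and 22.2 CPM in replicates 1 and 2. miR-133a-3p had 10.5 and 12 counts, and miR-133b-3p 0.5 and 0 counts. The part of muscle cells in the miR-486 level was not tested. Erythroid miR-451a and miR-144, as above, summed to 6 counts in replicate 1 and 4 in replicate 2.

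Of the leukocyte members, miR-146a-5p was well measured and miR-142a was scarce. miR-146a-5p had 237 counts in replicate 1 and 179 in replicate 2, or 28.4 CPM (24.9 to 32.3) and 22.0 CPM (18.9 to 25.5). Its mean of 25.2 ± 4.51 CPM (SD, n = 2) took rank 285. miR-142a-3p had 16 and 17 counts, or 1.92 CPM (1.10 to 3.12) and 2.09 CPM (1.22 to 3.35), at rank 545. miR-146a-5p thus exceeded miR-142a-3p 12.2-fold (log2 ratio 3.60 ± 0.35). miR-142a-5p had 2 counts in replicate 1 and 1 in replicate 2. The 7 rows of miR-451a, miR-144 and miR-486 exceeded the 3 leukocyte rows 5.87-fold (log2 ratio 2.55 ± 0.33). Without miR-486 the order turned: the leukocyte rows had 255 and 197 counts against 6 and 4 for miR-451a and miR-144. That was a log2 ratio of 5.38 ± 0.11. Most of those leukocyte counts, 237 and 179, were miR-146a-5p, which cells outside the blood lineages can make too. The miR-142a arms gave 18 counts in each library.

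In the order of levels, the steps from miR-486a-5p to miR-486a-3p (log2 ratio 0.87 ± 0.32) and from miR-146a-5p to miR-142a-3p were larger than 2 SD of the 2 libraries. With the miR-486 rows summed by arm the 5p to 3p step was 1.84 ± 0.31. miR-486a-3p and miR-146a-5p did not differ beyond their spread, with log2 ratios of 0.015 in replicate 1 and 0.87 in replicate 2. miR-142a-3p lay above miR-486b-3p by 1.44 ± 0.022 on the log2 scale, with exact 95% intervals of the ratio from 0.991 to 8.32 in replicate 1, which includes equal levels, and from 1.07 to 8.78 in replicate 2, which does not. The steps below it, down to miR-451a, miR-144-3p and miR-144-5p, all had counting intervals that included equal levels wherever the lower miRNA had a count. The rows nearest in mean level belonged to none of the lists used here. For miR-486 they are the neighbours of each split 5p row at 62.3 CPM, not of the summed 125 CPM. miR-325-3p (63.0 ± 2.68 CPM) lay just above the miR-486 5p rows and miR-1224-5p (61.9 ± 7.18 CPM) just below, at distances of 0.015 and 0.013 in mean log2 CPM over the 2 libraries. miR-7043-3p (25.4 ± 1.85 CPM) and miR-7224-3p (24.9 ± 0.814 CPM) bracketed miR-146a-5p, at distances of 0.02 and 0.0069.

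The seed that miR-146a-5p carries was present at a much higher level through its relative. miR-146b-5p, which has the same seed and lies in an intron of Mfsd13a (Mir146b, chromosome 19, 46342762 to 46342870, plus strand), had 4755 counts in replicate 1 and 4334 in replicate 2, or 570 and 534 CPM. It exceeded miR-146a-5p in both libraries, 20.1-fold (exact 95% interval 17.6 to 23.0) and 24.2-fold (20.8 to 28.3), a mean log2 ratio of 4.46 ± 0.19. The 2 differing bases lie toward the 3′ end, and the most frequent reads in both libraries kept them: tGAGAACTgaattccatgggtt for miR-146a-5p and tGAGAACTgaattccataggctg for miR-146b-5p. Shorter reads that end before base 18 cannot be told apart, and the counts of both rows were whole numbers.

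Other miRNAs of blood and immune cells, from a list of 17 of which 13 had a row, ranged from absent to abundant. The myeloid miR-223 and the lymphocyte miR-150 had no count on either arm in either library, and neither did miR-511-5p, known from macrophages. For those 5 rows the same limit of 3 counts is 0.36 CPM in replicate 1 and 0.37 CPM in replicate 2. miR-155-5p, a miRNA of activated immune cells, had 42 counts in replicate 1 and 32 in replicate 2 (5.04 and 3.94 CPM), above miR-142a-3p by a log2 ratio of 1.13 ± 0.33. miR-155-3p had 2 counts and 0 counts. miR-147-3p had 13 and 14 counts, miR-147-5p 3 and 2, and miR-146b-3p 3 and 5. The high members were miR-146b-5p and both arms of miR-342, a miRNA of lymphocytes and brain from introns of Evl. miR-342-5p was at 636 and 639 CPM and miR-342-3p at 173 and 137 CPM. No row was listed here for miR-142b, miR-146a-3p, miR-451b or miR-511-3p.

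Vessel wall miRNAs were measured beside these, since blood cells reach the tissue in vessels. The 6 rows of that list, 1 of them at 0, summed to 1045 and 920 CPM. miR-126a-3p of endothelial cells gave most of it, at 969 and 840 CPM, and exceeded miR-486-5p 7.24-fold (log2 ratio 2.86 ± 0.17). miR-143-3p of smooth muscle and pericytes was at 58.4 and 64.9 CPM, and the summed miR-486-5p exceeded it 2.02-fold (log2 ratio 1.02 ± 0.08). The rest of the list was lower, with miR-126a-5p at 16.4 CPM in replicate 1 and 13.2 CPM in replicate 2. miR-145a-3p had 5 and 11 counts, miR-145a-5p 1 and 2 counts, and miR-143-5p none, so miR-143-3p alone stood high among the miR-143 and miR-145a rows. Whether the vessels held blood cells was not tested.

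**Figure D2:**
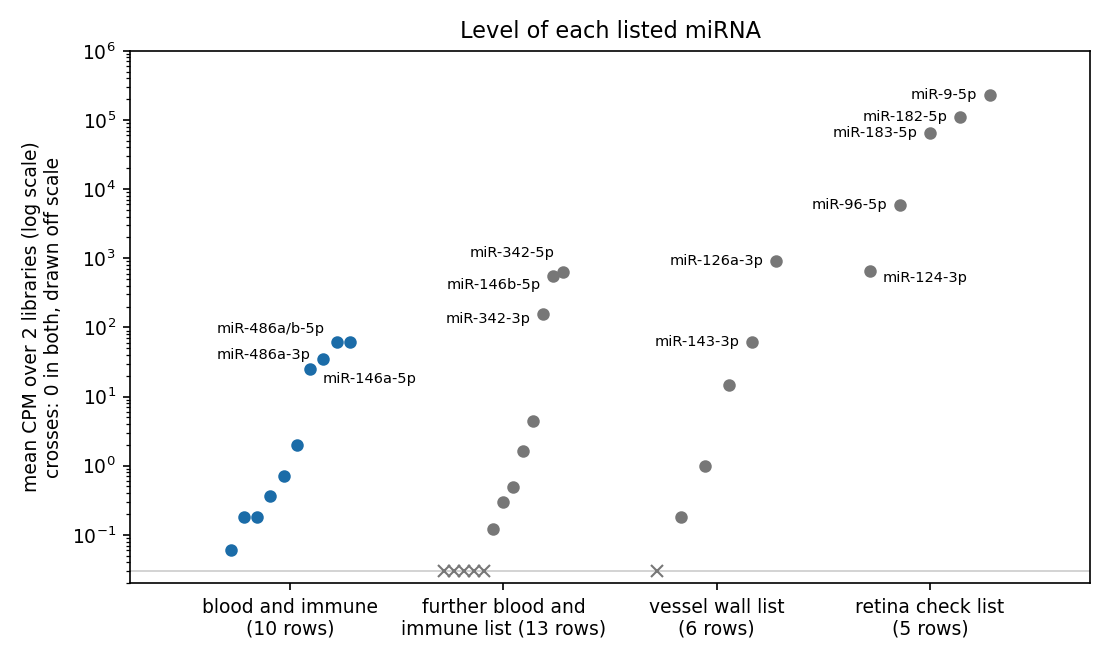
Mean CPM over the 2 libraries (log axis) of each listed miRNA, with the 10 members in blue and rows at 0 in both libraries as crosses drawn off the scale. The members end at 62.3 CPM, the level of each split miR-486 5p row, whose sum is 125 CPM. Both values lie below miR-146b-5p, miR-342-5p and miR-126a-3p and below the retinal miRNAs on the right.

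Arm use could be compared for 3 of the member hairpins, whose arms summed to 10 counts or more per library, and all 3 were called. A call needed an adjusted p below 0.05 in both libraries (exact two-sided binomial test of equal arm counts, Benjamini-Hochberg adjustment over 312 hairpins), the same sign and a mean log2 ratio over 2 SD. Such a call was made for 89.4% of all 312 hairpins, 46.2% for the 5p arm and 43.3% for the 3p arm, so a call by itself sets no hairpin apart. miR-142a favoured its 3p arm, with 16 of 18 counts in replicate 1 and 17 of 18 in replicate 2 (mean log2 ratio of 5p over 3p -3.13 ± 0.58, adjusted p = 0.00151 and 0.000177, exact binomial test). miR-486a favoured its 5p arm (log2 ratio 0.87 ± 0.31), and so did miR-486b (6.30 in both libraries), but both ratios rest on 5p reads divided evenly between the hairpins.

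Summed over both hairpins, miR-486 had a 5p share of 80.7% in replicate 1 (exact 95% interval 78.4 to 82.8%) and 75.5% in replicate 2 (73.1 to 77.7%). The summed log2 ratio was 1.84 ± 0.31 (adjusted p = 2.71e-113 and 8.79e-82, exact binomial test). The 3p arm was thus well represented: of the 312 hairpins, 51 had a smaller absolute mean log2 ratio, and the median was 4.59. miR-144 had too few counts for the test, and miR-146a had no row for its other arm.

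**Figure D3:**
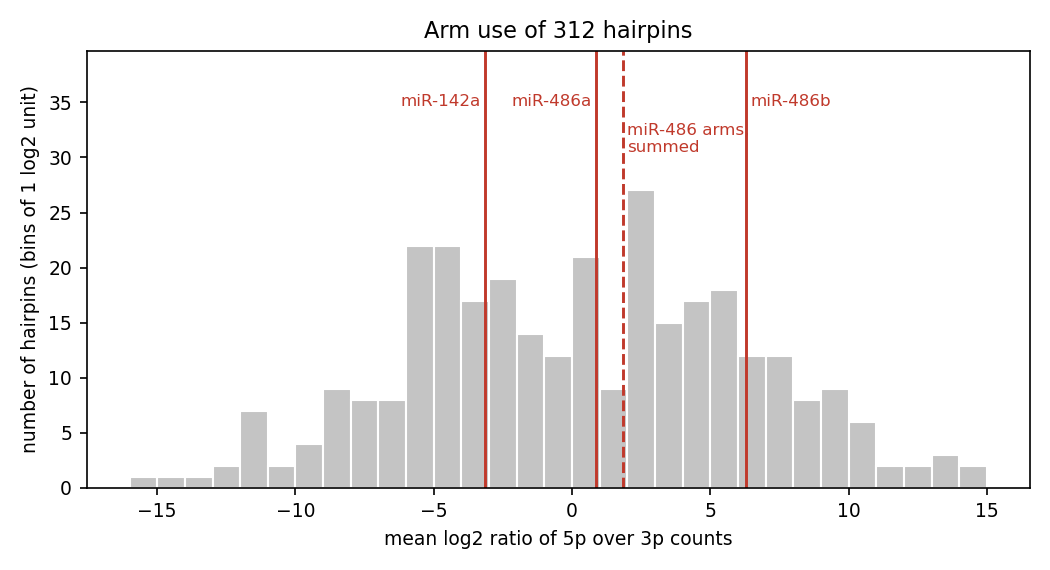
Number of hairpins by mean log2 ratio of 5p over 3p counts, in bins of 1 log2 unit, for 312 hairpins, with red lines at miR-142a (-3.13), miR-486a (0.87), miR-486b (6.30) and, dashed, the summed miR-486 rows (1.84). The summed miR-486 ratio lies nearer to 0 than most hairpins, on the 5p side.

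The most frequent reads showed the form in which the members were found. Of the 9 members with counts in both libraries, 7 had the same most frequent read in both, beside 66.5% of all 924 such rows. The same number, 7, started at the miRBase base in both, beside 76.7% of all. miR-146a-5p was read exactly as the RefSeq sequence, and miR-142a-3p 1 base shorter at its 3′ end. The miR-486a-5p, miR-486b-5p and miR-486a-3p reads ran past the miRBase 3′ end by 1 base. Reads past that end were held in both libraries by 23.9% of the 924 rows. Whether the hairpin encodes that base was not compared for the miR-486 reads.

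The scarce members varied most, on very few reads. The miR-451a read was 18 nt long in replicate 1 and 21 nt in replicate 2, 4 and 1 bases shorter than the 22 nt of RefSeq and with the same 5′ end. RNA of 18 to 30 nt was cut from the gel, so the shorter form sat at its lower edge. The miR-142a-5p read is shown because its start differed from the database in both libraries, which changes the seed:
miR-142a-5p, most frequent read: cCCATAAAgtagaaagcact
miR-142b, RefSeq: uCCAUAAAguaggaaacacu

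It began 2 bases before the RefSeq start and matched the miR-142 hairpin throughout. Its bases 2 to 8 were those of miR-142b, the RefSeq miRNA of the opposite strand, and of no other RefSeq mature sequence. This rests on 2 counts in replicate 1 and 1 in replicate 2. For rows of 1 to 3 counts in both libraries, 20% had a shifted start in both. The miR-144-3p read began 1 base early in replicate 1 and carried the mismatch U1A in replicate 2, and the only miR-144-5p read began 1 base late.

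The libraries were compared for the 6 members with at least 10 counts over both, and 2 of them differed. This test compares libraries of the same group, not conditions. Over all 710 miRNAs tested, 27.9% were called, 8.31% as higher and 19.6% as lower in replicate 2. The 6 member rows count the shared miR-486 5p reads in 2 rows. With rows of the same sequence summed 2 of 5 were called, and with the miR-486 rows summed by arm 2 of 4. So few rows do not set the members apart from the background. miR-486a-3p, with 239.5 counts against 327, was higher in replicate 2 (log2 ratio 0.48, adjusted p = 0.00041, exact two-sided binomial test with Benjamini-Hochberg adjustment over all tested). It was called as higher under TMM and DESeq2 scaling too. miR-146a-5p, with 237 counts against 179, was lower (log2 ratio -0.37, adjusted p = 0.0399, same test), but this call was lost with TMM scaling (log2 ratio -0.25, adjusted p = 0.237), with DESeq2 size factors (-0.26, adjusted p = 0.206) and without the filter on low counts (adjusted p = 0.0639).

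The other 4 members tested, miR-486a-5p, miR-486b-5p, miR-142a-3p and miR-486b-3p, were not called, with log2 ratios from 0.039 to 0.12. The miR-486 5p rows were at the same 512.5 counts in both libraries, while the 3p rows summed to 245 and 333, and the difference between the arms was not itself tested. The relative miR-146b-5p was called lower in replicate 2 by table totals (log2 ratio -0.095, adjusted p = 0.00768, exact binomial test). That call was lost and the sign turned with TMM scaling (0.023, adjusted p = 0.69) and DESeq2 size factors (0.0068, adjusted p = 0.951). miR-155-5p was not called (log2 ratio -0.35, adjusted p = 0.52, exact binomial test). The ratio of miR-146a-5p to miR-155-5p was 5.64 in replicate 1 and 5.59 in replicate 2. With table totals as the scale, the tested miRNAs had a median log2 ratio of -0.12, with miR-146a-5p below that shift and miR-486a-3p and miR-146b-5p above it.

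**Figure D4:**
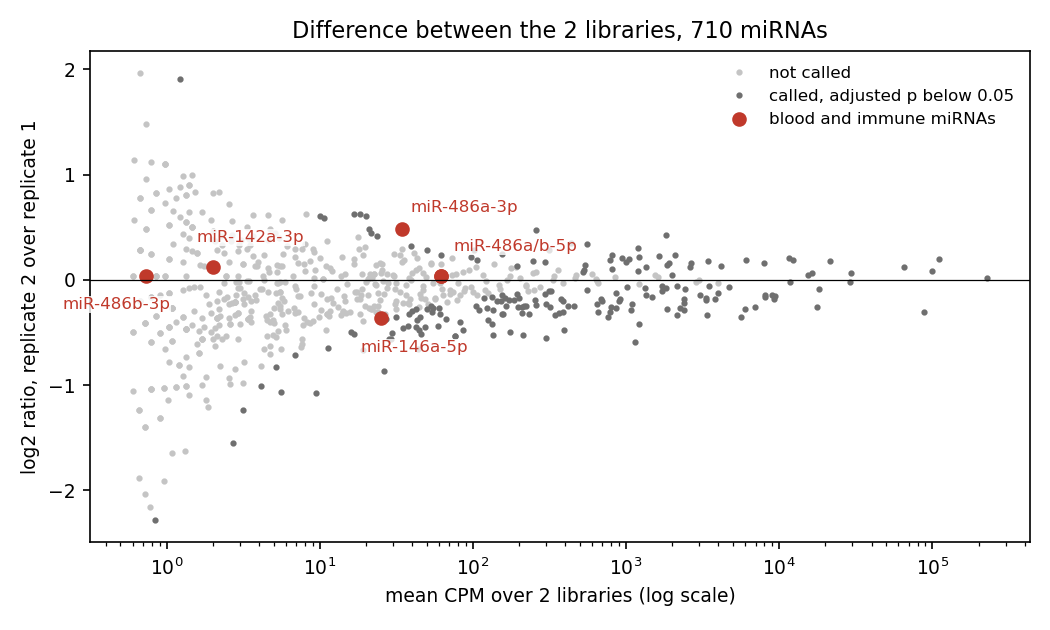
Log2 ratio of replicate 2 over replicate 1 against mean CPM (log axis) for 710 miRNAs, with called miRNAs in dark grey and the 6 tested members in red. miR-486a-3p (0.48) and miR-146a-5p (-0.37) lie away from 0 in opposite directions, while the miR-486 5p rows sit at 0.039.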

How the data were processed

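Small RNA of whole P0 retina was sequenced in 2 libraries of 1 group. TRIzol-extracted RNA of 18 to 30 nt was recovered from a gel before library preparation, per the labels' protocols. Per the submitters' processing notes, bcl2fastq 2.17.1.14 was used; an aligner, a counter or a build is not given in the sources used here. The authors' deposited counts are estimated counts, unscaled, with reads that fit several miRNAs split between them. The deposited CPM used a larger library total, since its columns sum to 88.5% of 1000000. The deposited table of most frequent reads was marked against miRBase 21, per the file headers, as text and no unit.

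CPM was recomputed from the table totals, and counts were rounded for tests. Exact binomial tests ran over all miRNAs with at least 10 counts (between libraries) and over all hairpins whose arms summed to 10 counts or more per library (0.5 added for ratios), with Benjamini-Hochberg adjustment at 0.05. Both were run on simulated counts that varied by counting error only, so that check says nothing about extra variation between real libraries. Exact 95% intervals and limits of 3 counts cover only the counting error within a library. Reads carry no molecular identifiers, so the counts are of reads and not of molecules. For a count of 0 the exact 95% interval ends at 0.442 CPM in replicate 1 and 0.454 CPM in replicate 2. The limit of 3 counts, 0.36 and 0.37 CPM, lies below those ends. Alternatives were TMM (edgeR 4.0.16) and DESeq2 1.42.0 scaling, other count filters and pseudocounts, summed rows and each library alone. Named miRNAs were all members, rows sharing a seed with them, the further blood and immune list, other arms of member hairpins, and the nearest rows in level to the highest member and to miR-146a-5p; vessel wall and muscle miRNAs were named outside that rule. Members, lists and tests were chosen with earlier results of these data known. Python 3.11.15, SciPy 1.17.1 and R 4.3.3 were used.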

Additional observations from a re-analysis of the deposited data

How the results depend on the processing

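The summed level of the members, 188 CPM, was 166 CPM in the deposited CPM, and their share of 0.0188% was 0.0166% of the total that the deposited CPM implies; both follow from the larger total. Without the miR-486 rows the share was 0.0028%. Each library alone gave 184 to 192 CPM for the summed level and 0.0184 to 0.0192% for the share. Of the 2 members called between libraries, 1 was called with TMM scaling, 1 with DESeq2 size factors and 1 without the count filter. The lost call was miR-146a-5p, as given in the report, and miR-486a-3p kept its call, with log2 ratios up to 0.60. Over all miRNAs, 59 were higher and 139 lower in replicate 2 by table totals, 107 and 80 with TMM and 101 and 88 with DESeq2 size factors. Each library alone gave 3 arm calls, which the rule of a call in both libraries fixes. With a minimum of 50 counts, or with the miR-486 rows summed, 2 hairpins were tested and both were called. Summing the miR-486 rows by arm was added after the data were seen for the comparison of libraries and changed no call. No paired analysis was possible because the design holds 1 group. Depth limits miR-451a, both arms of miR-144 and miR-142a-5p, each at 3 counts or fewer.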

Other observations

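The 512.5 counts of the miR-486 5p rows were equal in both libraries to the last digit. Of all rows with a count, 73 held equal values in both libraries, and 3 of them held at least 100 counts, namely miR-486a-5p, miR-486b-5p and miR-185-3p. Their table totals differed, so the CPM did not coincide. These rows were named after their values were seen.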
